A study of Danio rerio with 6 samples.

Results

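Within an RNA-seq series on whole kidney marrow of zebrafish, 2 of the 6 libraries, il7 mutant 2 and control 1, held far more messenger RNA of egg cells than the other 4. The pair was chosen by 1 measured gene, the egg coat gene zp3b, whose normalized count was above 10000 in both libraries and below 100 in il7 mutants 1 and 3 and controls 2 and 3. Since zp3b values drew the line, and every other gene was measured in the same libraries, the differences between the pair and the other 4 libraries are given as a description, with no test.

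The il7 mutant group of 3 libraries had a deletion inside il7, the interleukin 7 gene, that removed exons 2 to 4, and the control group of 3 libraries was wild type. Interleukin 7 is a cytokine that lymphocytes need to develop in mammals. Both groups shared the TLEK background and were unfractionated kidney marrow, which holds blood-forming cells together with nephrons. The labels used here give no age, no sex and no number of fish per library, so a p-value covers only sample-to-sample spread, part of which may be technical. With 1 library of each genotype in the pair, il7 genotype and the split by zp3b are not confounded. The targeted gene il7 had 17.8, 16.5 and 4.00 normalized counts in il7 mutants 2, 1 and 3, against 89.8, 61.6 and 57.7 in controls 1, 2 and 3, so each mutant library lay below each control library.

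A growing oocyte is wrapped in an egg coat of zona pellucida (ZP) proteins, stores messenger RNA and protein for the embryo, and gathers germ plasm in a structure called the Balbiani body. Around it lie follicle cells, which make steroid hormones, while the yolk precursor vitellogenin is made mainly by the liver and taken up by the oocyte. In adult zebrafish the kidney is the main blood-forming organ, and the gonads are separate organs.

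Reads recovered from the normalized counts totalled between 34496353 and 46120889 per library. The 20782 genes whose normalized count averaged 10 or more were compared on the log2(normalized count + 1) scale. A gene is called higher where the pair exceeded the other 4 libraries by a fitted log2 difference of at least 2, which is 4-fold, and both libraries lay above all 4 others. The mirror rule defines the lower genes. There were 1294 higher genes (6.23%) and 213 lower genes (1.02%), and these shares are the background against which each gene list below is read. The nearest gene inside the upper threshold was drd4a at 2.00, and the nearest gene outside it was also at 2.00 after rounding. At the lower threshold slc2a11b lay just inside at −2.0, and the nearest gene outside rounded to −2.0 as well. The median difference over all genes was −0.06 on the deposited scale, 0.12 after scaling all libraries to the same total and −0.23 after quantile normalization.

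The higher genes together made up 8.40% of all normalized counts in il7 mutant 2 and 15.7% in control 1. In the other 4 libraries they made up 0.410% in il7 mutant 1, 0.391% in il7 mutant 3, 0.421% in control 2 and 0.418% in control 3. By the rule each of these genes is higher in the pair than in all 4 other libraries, so a gap between the shares follows from it. In bulk RNA, fewer cells of a type and less RNA per cell cannot be told apart, so the shares do not count oocytes. Lower genes took a smaller part, with 0.478% in il7 mutant 2 and 0.320% in control 1, against 2.12% in il7 mutant 1, 3.18% in il7 mutant 3, 0.872% in control 2 and 3.50% in control 3. Control 2 was therefore the nearest to the pair on that side.

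**Figure D1:**
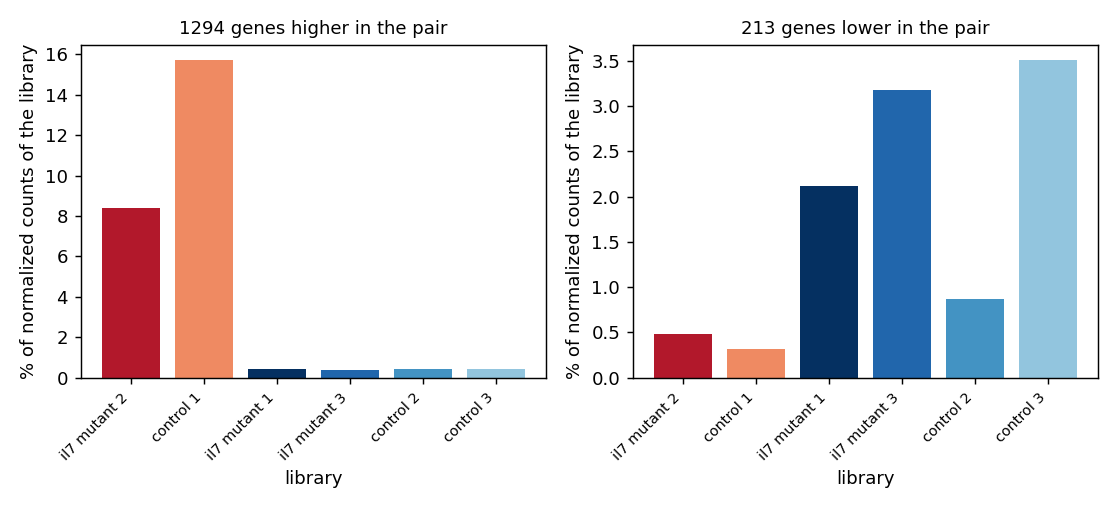
Share of each library's normalized counts, in percent, taken by the 1294 genes higher in the oocyte-rich pair (left panel) and by the 213 genes lower in it (right panel), 1 bar per library with the pair at the left. The higher genes take 8.40% and 15.7% in il7 mutant 2 and control 1 and under 1% in each other library.

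The marker zp3b, which encodes a ZP protein of the egg coat, had 31205 normalized counts in il7 mutant 2 and 55927 in control 1, against 64.8 in il7 mutant 1, 54.9 in il7 mutant 3, 68.7 in control 2 and 52.1 in control 3. The gap of 9.42 (SE 0.27) on the log2 scale is the value that chose the pair. The organizer of the Balbiani body, buc, had 17984 and 36716 in il7 mutant 2 and control 1, against 36.5, 27.0, 67.7 and 52.1 in il7 mutants 1 and 3 and controls 2 and 3. Likewise bmp15, a growth factor that oocytes secrete toward follicle cells, had 1288 and 3141 in the same pair, against 10.6, 10.99, 5.05 and 14.4 in the other 4. Neither buc nor bmp15 overlapped between the pair and the other 4 libraries. Of all genes compared, 23.9% likewise had both libraries of the pair above all 4 others. The rule used zp3b alone, but buc and bmp15 were chosen with earlier results of these data known. Their separation is therefore a description and no independent support. Control 1 exceeded il7 mutant 2 in all 3 markers.

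Egg coat genes were higher in the pair throughout their list. All 18 features were fitted and 18 were called higher, zp3b itself among them, with a median log2 difference of 9.33, a lowest of 2.51 for zpd and a highest of 10.64 for zp2.5. Summed over the list there were 201714 normalized counts in il7 mutant 2 and 392689 in control 1, against 828 in il7 mutant 1, 686 in il7 mutant 3, 1276 in control 2 and 777 in control 3. Each of those 4 sums was between 0.231% and 0.429% of the mean of the pair. Without zp3b, 17 of 17 were called higher, the median was 9.23 and the sums were 170510 in il7 mutant 2 and 336762 in control 1, against 631 to 1208 in the other 4 libraries. The ZP gene zp2.5 had 5392 and 13372 normalized counts in il7 mutant 2 and control 1, while il7 mutants 1 and 3 and control 3 were between 1.11 and 2.36 and control 2 reached 36.4. Control 2 also held the most zp2.2, zp2.3, zp2l1 and h1m of the 4 libraries outside the pair, with 63.7, 21.2, 58.6 and 117 normalized counts.

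1 ZP gene broke the usual order of the pair. For zpcx the normalized count was 11139 in il7 mutant 2 and 1115 in control 1, against 3.54, 5.99, 20.2 and 4.44 in il7 mutants 1 and 3 and controls 2 and 3. Over the whole egg coat list the median log2 ratio of il7 mutant 2 to control 1 was −0.99, so most members ran the other way.

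Oocyte regulators and germ plasm genes were also mostly higher, 22 of 25 fitted (27 features in the list), with a median difference of 6.18. GDF9, a growth factor of the same family as bmp15, had 534 and 1034 normalized counts in il7 mutant 2 and control 1 and between 0 and 2.36 in the other 4 libraries. figla, an oocyte transcription factor that in mice drives ZP genes, had 468 and 1009, against 1.00 to 2.22. The oocyte linker histone h1m had 16271 and 34306 in il7 mutant 2 and control 1, and ca15b, a carbonic anhydrase gene, had 6882 and 12084. Their log2 differences were 10.005 (SE 0.95) and 10.59 (SE 0.54). The chromatin protein gene npm2b, a nucleoplasmin of the egg, differed by 8.05 (SE 0.59).

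Germ cell genes that testis germ cells use as well were also found in il7 mutant 3 and control 3. The RNA helicase gene DDX4, known as vasa, had 1787 and 3447 normalized counts in il7 mutant 2 and control 1, against 24.8 in il7 mutant 1, 298 in il7 mutant 3, 3.03 in control 2 and 680 in control 3. PIWIL1, whose protein binds the small piRNAs that silence transposons, had 1079 and 1857 in the pair, against 58.9, 573, 2.02 and 1278 in il7 mutants 1 and 3 and controls 2 and 3. Control 3 thus overlapped the pair for PIWIL1, which was not called, while DDX4 did not overlap. The RNA-binding gene DAZL and the Tudor gene TDRD1 had the same order among the 4 other libraries as DDX4, with 261 and 197 normalized counts in control 3, the highest of those 4. The remaining members not called were TDRD7 and an RBPMS2 feature (ENSDARG00000045930), at 0.25 (SE 0.27) and −0.13 (SE 0.16). The second RBPMS2 feature (ENSDARG00000079578), whose symbol covers a pair of near copies, was called at 2.195 (SE 0.33).

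**Figure D2:**
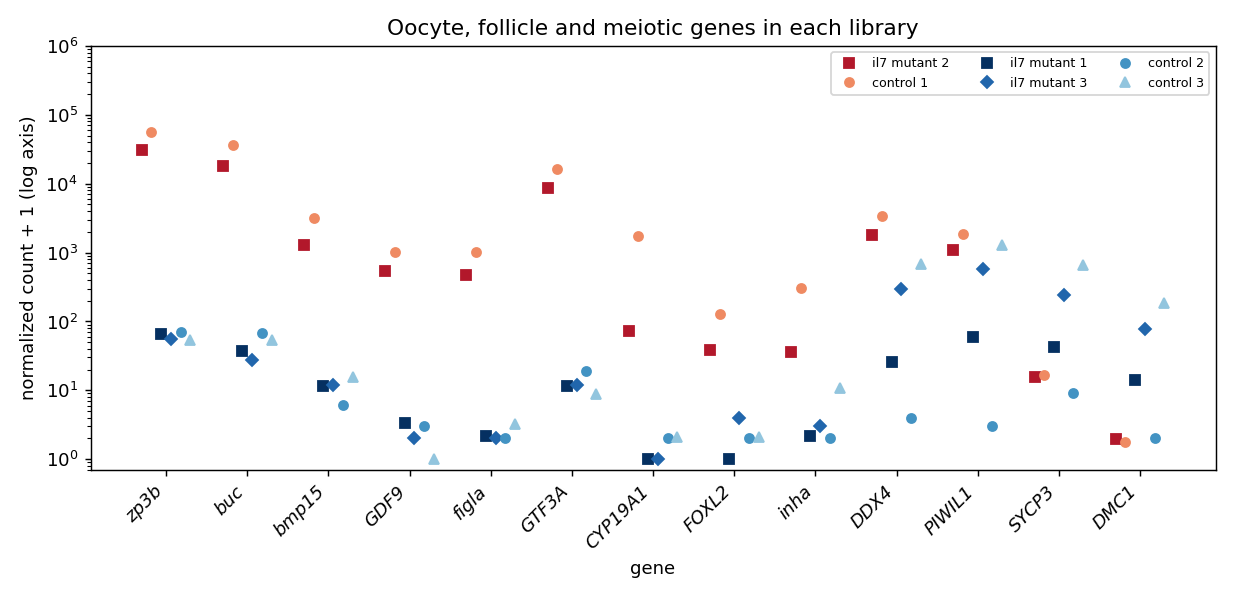
Normalized count + 1 on a log axis for 13 oocyte, follicle and meiotic genes, 1 point per library, with the oocyte-rich pair in red and orange and the other 4 libraries in blue. From zp3b to inha both libraries of the pair lie above all others, for PIWIL1 control 3 lies inside the pair's range, and for SYCP3 and DMC1 il7 mutant 3 and control 3 are highest.

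Genes that control stored messenger RNA and the maturation of the oocyte, cell cycle kinases and cyclins among them, were taken as 1 list. It had 10 of 18 fitted features called higher and a median of 4.54. Among those known from oocytes, patl2, a translational repressor, differed by 10.34 (SE 0.48), BTG4, which helps clear maternal messenger RNA, by 9.46 (SE 0.43), ZAR1L by 8.97 (SE 0.36) and CPEB1, which controls cytoplasmic polyadenylation, by 8.80 (SE 0.34). MOS, the kinase that holds mature eggs in meiosis, had 1962 and 3092 normalized counts in il7 mutant 2 and control 1, against 29.5, 10.99, 32.3 and 19.97 in il7 mutants 1 and 3 and controls 2 and 3. WEE2, an oocyte kinase that restrains cell cycle entry, differed by 4.73 (SE 0.22), less than the general B-type cyclin CCNB2 at 6.35 (SE 0.31). The second B-type cyclin CCNB1 had 14820 and 27966 in the pair and between 929 and 1024 in the other 4 libraries, and its kinase partner CDK1 had 2213 and 2583, against 1119 to 1544. CDK1 was not called, nor was cpeb1a, a relative of CPEB1, at 1.80 (SE 0.42). YBX1, a general RNA-packaging protein, had a log2 difference of −0.57 (SE 0.20).

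Maternal determinants, the stored transcripts that pattern the early embryo, had 8 of 13 fitted features higher and none lower, with a median of 2.596. hwa, which sets the dorsal side in zebrafish, had 798 and 1378 normalized counts in il7 mutant 2 and control 1, against 1.18, 2.00, 2.02 and 9.98 in il7 mutants 1 and 3 and controls 2 and 3. The signal gene gdf3 and the transcription factor gene nanog differed by 9.28 (SE 0.51) and 8.81 (SE 0.41), and birc5b, a survivin gene, by 9.47 (SE 0.47). A lower contrast was seen for mid1ip1l, which is needed for the cortex of the fertilized egg, with 16333 and 27235 in il7 mutant 2 and control 1, against 3825 to 4348 in the other 4 libraries. For this gene the other libraries held a clear level of their own.

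Outside the gene lists, the largest differences with a gene name fell on kpna7, a nuclear import receptor of the oocyte, at 10.68 (SE 0.49), and on the zinc finger gene cth1 at 10.49 (SE 0.48). Other named genes above 10 outside those lists included the La-related RNA-binding gene larp6b (10.26), trim35-29 (10.21), qdprb.3 (10.14), the thymosin gene tmsb5 (10.12) and the claudin gene cldnd (10.03). In kpna7 the normalized count was 12095 in il7 mutant 2 and 25510 in control 1, and between 4.00 and 16.2 in the other 4 libraries. Among all higher genes 153 had a log2 difference above 8. A symbol that is more than a clone name was missing for 427 of the 1294 higher genes (33.0%), against 21.4% of all genes compared.

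A store of 5S ribosomal RNA is a known feature of young oocytes in Xenopus, where it is held by the transcription factor TFIIIA and by the protein of 42sp43. These genes were looked up after their values had been seen. 42sp43 had 3112 and 5851 normalized counts in il7 mutant 2 and control 1, against 2.36, 2.00, 4.04 and 2.22 in il7 mutants 1 and 3 and controls 2 and 3. Of the 2 features named GTF3A, the gene of TFIIIA, one (ENSDARG00000071583) had 8534 and 16482 in the pair and between 7.77 and 18.19 elsewhere. The other feature (ENSDARG00000030267) had 749 and 1027 in il7 mutant 2 and control 1, against 398 to 569 in the other 4 libraries. These features differed from the remaining libraries by 9.91 (SE 0.43) and 0.96 (SE 0.23). RPL5, the ribosomal protein that binds 5S RNA in the ribosome, has 2 features, and they ran the other way at −0.58 (SE 0.19) and −0.82 (SE 0.23). Of the 5 features looked up 2 were called higher and 3 were not called.

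Follicle cell genes were higher in the pair for 6 of 17 fitted features, with a median of 2.12 that rested on control 1: within the mutant side, il7 mutant 2 minus the mean of il7 mutants 1 and 3, it was −0.13, and within the control side, control 1 minus the mean of controls 2 and 3, it was 2.11. With the filter at a mean of 50 the median was −0.00. CYP19A1, the aromatase that makes estrogen, had 71.4 normalized counts in il7 mutant 2 and 1767 in control 1, against 0, 0, 1.01 and 1.11 in il7 mutants 1 and 3 and controls 2 and 3. FOXL2 (ENSDARG00000068417), a transcription factor of ovarian follicle cells, had 37.7 and 128, against 0 to 3.00, and inha, an inhibin subunit gene, had 34.7 and 302, against 1.01 to 9.98. In each of these genes il7 mutant 2 lay between control 1 and the other libraries. The follicle-stimulating hormone receptor gene FSHR had 34.7 and 44.1 normalized counts in the pair, against 2.36, 10.99, 3.03 and 13.3. gsdf, which is active in supporting cells of both ovary and testis, had 235 and 436 in il7 mutant 2 and control 1, against 9.43, 31.0, 29.3 and 470 in il7 mutants 1 and 3 and controls 2 and 3, so control 3 overlapped the pair. The supporting-cell hormone gene amh did not separate them, with 15.9 and 17.3 against 12.1 to 51.0.

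Steroid synthesis, which the interrenal cells of the kidney share with the gonad, gave 4 of 12 fitted features higher, with a median of 1.47. Of the 12 differences, 8 were above 0 and 4 below, the lowest at −2.95. The list median was 0.56 within the mutant side and 2.66 within the control side. hsd3b2, an enzyme of progesterone synthesis, had 738 and 705 normalized counts in il7 mutant 2 and control 1, against 1.18, 4.995, 0 and 2.22 in il7 mutants 1 and 3 and controls 2 and 3. Here the pair was at about the same level. CYP17A1, which makes androgen precursors, had 1310 and 4212 in the pair, against 8.25, 44.96, 8.08 and 175. The cortisol enzyme gene cyp21a2, an interrenal marker, was not called, with 251 and 46.5 against 242, 332, 394 and 51.0. NR5A1 (ENSDARG00000103176), a regulator of steroid enzymes, had 35.7 and 335, against 4.04 to 8.99.

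The yolk genes vtg2 and vtg3 ran opposite to most follicle genes inside the pair. vtg2, a vitellogenin, had 8540 normalized counts in il7 mutant 2 and 436 in control 1, against 1.18, 4.995, 42.4 and 9.98 in il7 mutants 1 and 3 and controls 2 and 3. A second vitellogenin, vtg3, had 3151 and 349, but control 2 at 573 overlapped the pair and the gene was not called. The lipoprotein receptor gene lrp13 had 16733 and 34687 in il7 mutant 2 and control 1, against 35.4 to 103, in the order of most egg coat genes. Of the 11 yolk features, 6 were fitted and 2 were higher. Liver genes had no called member among 13, with 8 differences above 0 and a median of 0.54. Their sum was 8236 in il7 mutant 2 and 1846 in control 1, against 30839, 17551, 3627 and 18020 in il7 mutants 1 and 3 and controls 2 and 3. A single apolipoprotein gene, apoa2, made up 27903 and 14824 of the sums in il7 mutant 1 and control 3. The part of liver RNA in the vitellogenin values was not tested.

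The ratio between the 2 libraries of the pair varied little over most higher genes. The median ratio of il7 mutant 2 to control 1 over the 1294 genes was 0.540, or −0.88 on the log2 scale, with quartiles of −1.15 and −0.62. Control 1 was the higher library for 1195 of them and il7 mutant 2 for 99. Shares over all genes were not computed for these counts or for the 8-fold counts that follow. There were 37 genes more than 8-fold lower in il7 mutant 2 than in control 1, and 14 more than 8-fold higher. The first set held CYP19A1, inha, NR5A1 and mfap4.4, for which the normalized count was 27.8 in il7 mutant 2 and 4625 in control 1. It also held the posterior patterning genes hoxa13a, hoxa13b and eve1, with 3.97, 4.96 and 2.97 in il7 mutant 2 and 97.7, 224 and 126 in control 1. The second set held vtg2, zpcx and SPATA1, the last with 1336 in il7 mutant 2 and 30.7 in control 1. These extreme genes were picked out after their values were seen.

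Both sides of the comparison can be set against each other, since each genotype gave 1 library to the pair. The log2 difference reached at least 2 on both sides for 987 of the 1294 higher genes, and −2 or less on both sides for 121 of the 213 lower genes. By the rule both sides of every called gene share a sign, so part of these counts follows from the choice of genes. The share over all genes was not computed. Over all 20782 genes the mutant-side and control-side differences had a Pearson r of 0.73, and over the 19275 genes outside the called sets it was 0.36. Each side shares the authors' normalization but no library, and genes are not independent replicates, so r is a description.

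**Figure D3:**
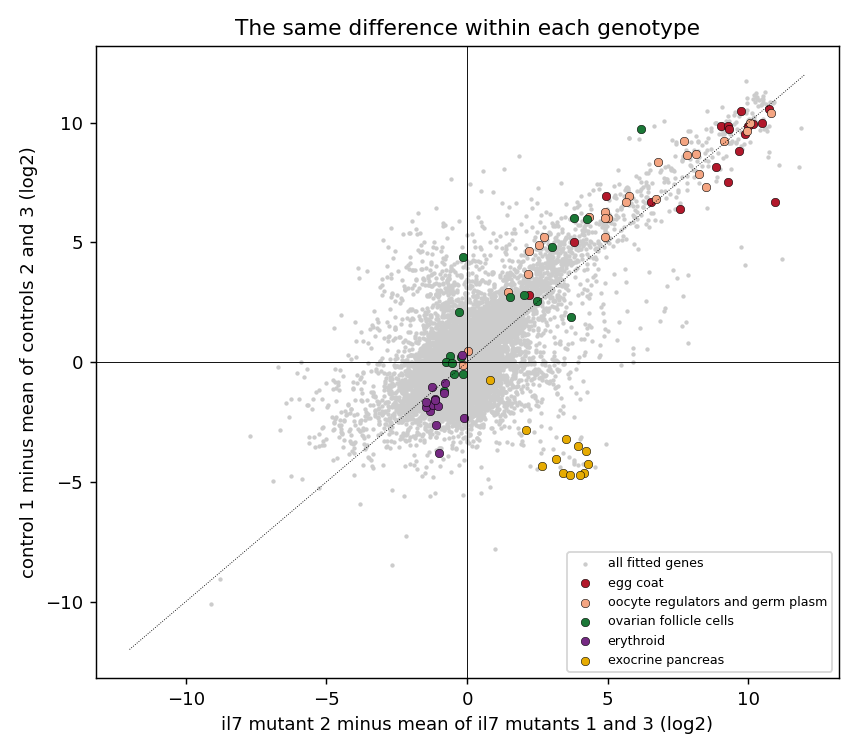
Log2 difference of il7 mutant 2 from the mean of il7 mutants 1 and 3 (x axis) against that of control 1 from the mean of controls 2 and 3 (y axis), 1 point per gene, with 5 gene lists in colour and a dotted line of equality. Egg coat genes lie along the line at the upper right, and exocrine pancreas genes lie off it at the lower right, with medians of 3.59 and −4.16.

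Whether the mutant-side difference departs from the control-side difference was tested, because the choice of the pair did not use it. In this fit il7 mutant 2 and control 1 are each the only library of their kind and leave no residual. The spread behind each SE and p-value thus came from the libraries outside the pair. It holds nothing on how oocyte-rich libraries vary, and they were assumed to vary as the others do. In limma's interaction test 0 of 20782 genes (0%) passed an adjusted p of 0.05, and 998 (4.8%) had an unadjusted p under 0.05, of which 92 were among the higher genes. The fit has 2 residual degrees of freedom before limma's moderation, so the lack of calls does not show that the sides are alike. Fitted departures as large as those of CTH and vtg2 below did not pass. The smallest adjusted p was 0.257, for CTH, the cystathionine gamma-lyase gene of sulfur amino acid metabolism. Its normalized count was 98.2 in il7 mutant 2 and 2494 in control 1, against 2121, 2371, 654 and 611 in il7 mutants 1 and 3 and controls 2 and 3, an interaction of −6.48 (SE 0.35). The next gene, leap2, which encodes an antimicrobial peptide of the liver, had an adjusted p of 0.951 by limma at 4.83 (SE 0.49). For vtg2 the interaction was 6.89 (SE 1.57) and for CYP19A1 −3.57 (SE 1.13), with limma adjusted p of 0.974 and 0.989. When control 2 was left out 6 genes were called, all digestive enzymes of the exocrine pancreas (ctrb.1, prss59.1, prss1, prss59.2, ela3l and ela2l), each with a limma adjusted p of 0.0438. The residual spread then came from il7 mutants 1 and 3 alone, and control 1, control 3 and il7 mutant 2, each the only one of its kind, were assumed to vary as they do, so these calls rest on 1 control library outside the pair.

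The pancreas list shows where the pair was not alike. Summed, its 12 features had 55923 normalized counts in il7 mutant 2 and 9075 in control 1, against 11718, 12572, 16728 and 89527 in il7 mutants 1 and 3 and controls 2 and 3. The trypsin gene prss1 had 7870 and 136 in the pair, against 473, 542, 154 and 15974. High values were thus in il7 mutant 2 and control 3, and the list's median over all 6 libraries was −0.30, with 0 of 12 features called in either direction. It was 3.59 without control 1 and 1.67 without control 3.

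**Figure D4:**
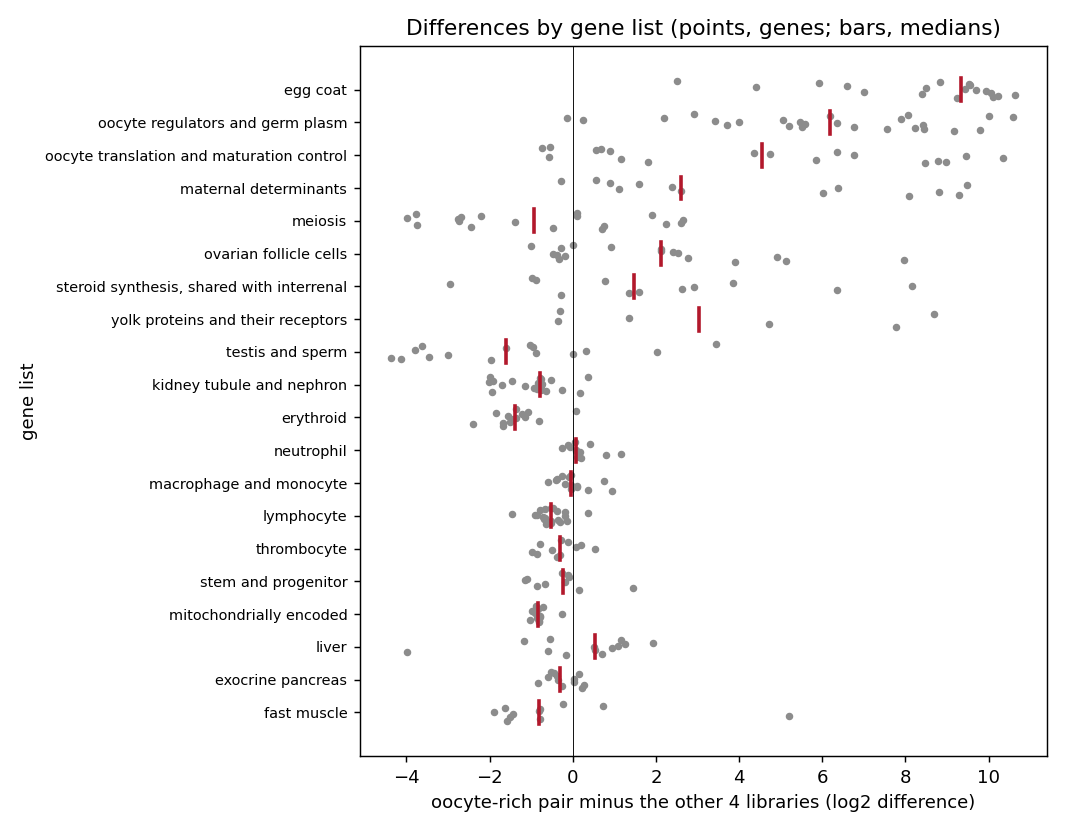
Log2 difference of the oocyte-rich pair from the other 4 libraries (x axis) for each fitted gene of the 20 lists, 1 grey point per gene and a red bar at each list's median. The medians run from 9.33 for the egg coat to −1.60 for testis and sperm genes, with the neutrophil and macrophage lists at 0.09 and −0.04.

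Genes of meiotic recombination did not separate the pair from the other libraries as a list. Summed, they had 3391 and 4227 normalized counts in il7 mutant 2 and control 1. The sums were 2206 and 4963 in il7 mutants 1 and 3, and 1849 and 8442 in controls 2 and 3. Only il7 mutant 3 and control 3 thus exceeded the pair. Of 18 fitted features 0 were higher and 2, MEIOB and DMC1, were lower, with a list median of −0.93 that turned to 0.11 with the filter at a mean of 50 and to 0.19 with a replicate block. DMC1, the recombinase of meiosis, had 0.992 and 0.788 normalized counts in il7 mutant 2 and control 1, against 13.0, 76.9, 1.01 and 183 in il7 mutants 1 and 3 and controls 2 and 3. The pair and control 2 held 1 read each, so for DMC1 the rule was met only through the size factors. The synaptonemal complex gene SYCP3 had 14.9 and 15.8, against 41.3, 242, 8.08 and 653. Control 3 and il7 mutant 3 were highest and control 2 overlapped the pair. The cohesin gene rad21l1 had 343 and 763 in il7 mutant 2 and control 1, and control 3 overlapped the pair at 420. stag3, another cohesin gene, had 231 and 556, with 240 in control 3, so il7 mutant 2 lay just below that library.

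Testis and sperm genes had the same 2 libraries on top. The Leydig cell hormone gene insl3 had 1.98 and 6.30 normalized counts in il7 mutant 2 and control 1, against 10.6, 545, 0 and 1793 in il7 mutants 1 and 3 and controls 2 and 3. The list had 1 lower feature, dcst1, a gene of the sperm membrane, and 2 higher ones of 15. For dcst1 control 1 and control 2 held 2 reads each, so that call too rested on the size factors. The higher ones were SPATA18 and a SOX9 feature (ENSDARG00000043923), which had 403 and 868 in the pair, against 36.6 to 65.7. SPATA18 is known from mitochondrial quality control, and SOX9 from the development of both gonad types.

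Kidney, red cell and mitochondrial genes were lower in the pair, mostly by less than the 4-fold rule. For comparison, 19.4% of all genes had both libraries of the pair below all 4 others and 23.9% had both above. Of 21 fitted nephron genes 15 had both libraries below all others, with 1 called lower and a median of −0.80. The tubule cadherin gene CDH17 had 64951 and 50598 normalized counts in il7 mutant 2 and control 1, against 102647, 110925, 112854 and 113134 in il7 mutants 1 and 3 and controls 2 and 3. SLC13A3, a tubule transporter, had 4616 and 4493, against 14463, 22484, 11749 and 29768, and was the called member at −2.01 (SE 0.39). Both genes separated the pair from the other libraries, which the rule requires of SLC13A3 as a called gene.

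Red cell genes had 9 of 14 fitted features below all others and a median of −1.39, with 0 called. The alpha globin gene hbaa1 had 103393 and 43576 normalized counts in il7 mutant 2 and control 1, against 265616, 244965, 176307 and 187569 in il7 mutants 1 and 3 and controls 2 and 3. alas2, the first enzyme of heme synthesis in red cells, had 24511 and 12045, against 41809 to 81415. Mitochondrially encoded genes had 12 of 13 features below all others and a median of −0.85, and their sum was 1865150 and 1453290 in il7 mutant 2 and control 1, against 3212080, 3018610, 2763750 and 3278160. Scaled to the same total, the medians were −0.62 for nephron genes, −1.21 for red cell genes and −0.67 for mitochondrial genes. The share of each library taken by the higher genes was larger in the pair, where these lists were lower. The part of that share in the lower values was not tested.

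White blood cell lists differed in their medians. Neutrophil and macrophage lists had medians of 0.09 and −0.04 and no called member among 12 and 14 fitted features, and the sign of both medians changed under other settings. The lysozyme gene lyz had 180516 and 91519 normalized counts in il7 mutant 2 and control 1, against 92989 to 136722 in the other 4 libraries, so the groups overlapped. Lymphocyte genes had a median of −0.52, with 0 called and 19 of 20 fitted features below 0, a count without a share over all genes. The pair lay below all others in 5 of the 20, close to the 19.4% of all genes. Summed, the list had 10433 normalized counts in control 1 and 10183 in il7 mutant 3, so the groups overlapped. RAG1, a recombinase gene of antigen receptors, had 299 and 335 normalized counts in il7 mutant 2 and control 1, against 463 to 790 in the other 4 libraries. Its partner RAG2 had 235 and 214, against 375 to 442. Both genes were among the 5 with the pair below all others, at −0.90 (SE 0.28) and −0.85 (SE 0.22). Thrombocyte and stem cell lists had medians of −0.30 and −0.23, with 0 called of 11 and 10. Fast muscle genes had 1 called of 11, a TNNT3 feature (ENSDARG00000030270), with 70.4 and 128 against 0 to 4.00. Summed, the muscle list had 19697 and 8844 in il7 mutant 2 and control 1, against 156508, 18140, 6069 and 79833 in il7 mutants 1 and 3 and controls 2 and 3.

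Few genes were absent from the pair by the rule used here. It asked for 3 reads or fewer in both libraries and at least 10 normalized counts in each of the other 4. Of 32267 features, 4 met it. By the reverse rule, 150 of 32267 were absent from the other 4 and present in the pair. These counts are not on equal terms, since presence was required in 4 libraries for the first and in 2 for the second. Among the 4 genes absent from the pair, by far the largest gaps were in 2 genes of major histocompatibility complex (MHC) class II. Their proteins present antigen to helper T cells. mhc2dga had 0.992 and 0 normalized counts in il7 mutant 2 and control 1, against 1217, 991, 1474 and 829 in il7 mutants 1 and 3 and controls 2 and 3. Likewise mhc2dgb had 0.992 and 0.788, against 1036, 724, 1221 and 758. The fitted differences were −9.61 (SE 0.41) and −8.92 (SE 0.36), which depend on the added 1 at such low counts.

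Other features with an MHC class II symbol were looked up after these values were seen, and 8 were fitted with these included. None was higher by the rule, 2 were lower and 6 were neither. The most abundant, mhc2daa, had 5127 and 11200 normalized counts in il7 mutant 2 and control 1, against 6888, 4556, 9361 and 4857 in il7 mutants 1 and 3 and controls 2 and 3. mhc2dab had 2349 and 8416, against 476, 226, 4594 and 307, so that control 2 fell inside the range of the pair. The class II chaperone gene cd74a had 13145 and 23629 in the pair, against 16988 to 29376. Levels of the other class II genes therefore overlapped, unlike those of mhc2dga and mhc2dgb. The remaining absent genes had clone names: si:dkey-11d18.2 had 2.97 and 1.58, against 16.2 to 48.0, and si:ch211-63p21.8 had 0 and 2.36, against 11.1 to 26.0.

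**Figure D5:**
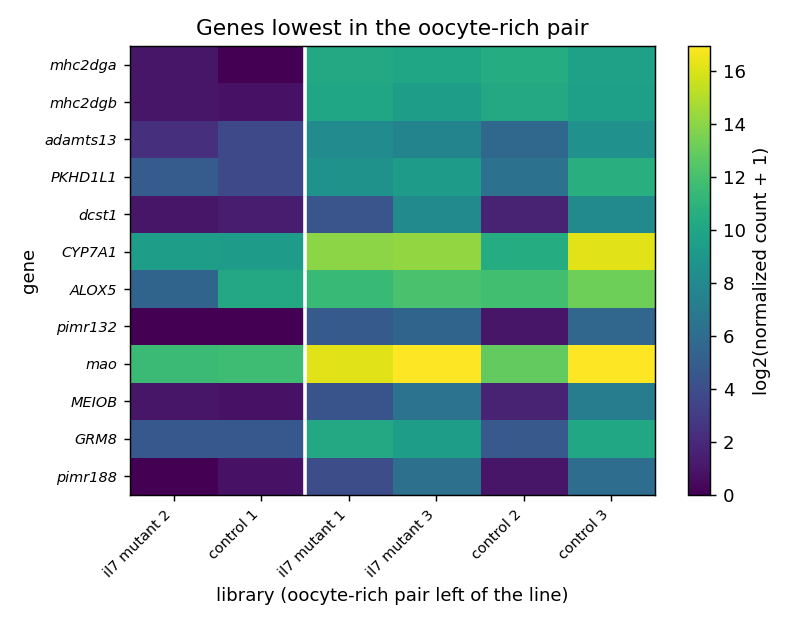
Heat map of log2(normalized count + 1) for the 12 named genes with the lowest differences, rows as genes and columns as libraries, the oocyte-rich pair left of the white line. Only mhc2dga and mhc2dgb among these 12 are high in all 4 other libraries and near 0 in the pair, while control 2 is close to the pair for GRM8, mao and CYP7A1.

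In part of the other lower genes control 2 lay near the pair. In 13 of the 213, at 3 reads or fewer in both libraries of the pair, the pair did not have fewer reads than every other library, and the call rested on the size factors. Control 2 was the lowest of the 4 other libraries in 150 of the 213 lower genes (70.4%), against 28.2% of all genes. It lay nearer to the pair's mean than to the mean of the remaining 3 in 116 (54.5%), a share not computed over all genes. CYP7A1, the first enzyme of bile acid synthesis, had 724 and 648 normalized counts in il7 mutant 2 and control 1, against 16651, 19297, 1441 and 74788 in il7 mutants 1 and 3 and controls 2 and 3. The monoamine oxidase gene mao had 2967 and 3236, against 73752, 126696, 7414 and 122254. The glutamate receptor gene GRM8 had 24.8 and 24.4, against 1192, 716, 25.3 and 1129. In all 3 genes control 2 was far nearer to the pair than to the remaining 3 libraries. Counting control 2 with the pair gave 35 absent genes in place of 4, a reading added after the values were seen.

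ALOX5, which starts leukotriene synthesis, had 43.6 normalized counts in il7 mutant 2 and 1200 in control 1, against 2936, 4388, 3669 and 9469 in il7 mutants 1 and 3 and controls 2 and 3. It was among the 97 lower genes in which control 2 was not nearer to the pair. adamts13, a protease that cuts von Willebrand factor, had 3.97 and 12.6, against 289, 203, 49.5 and 386. PKHD1L1 had 29.7 and 12.6, against 391, 633, 80.8 and 1560. Both adamts13 and PKHD1L1 separated the pair from all 4 other libraries, as the rule requires of every lower gene.

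Among the 150 genes absent from the other 4 libraries, 48 had a gene symbol other than a clone name. foxh1, a partner of Nodal signalling that zebrafish eggs store, had 674 and 1334 normalized counts in il7 mutant 2 and control 1, against 1.18, 1.00, 2.02 and 1.11 in il7 mutants 1 and 3 and controls 2 and 3. The gap junction gene gja11 had 174 and 1319, against 0 to 2.00, and the stem cell RNA-binding gene LIN28A had 507 and 794, against 0 to 3.33. The crystallin gene crygmxl1 had 129 and 285 and not a single read in the other 4 libraries. For these genes a log2 difference depends on the added 1, and none is given.

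Genotype was then tested with the pair as a term in the fit, and limma called 0 of 20782 genes (0%), with 1672 (8.05%) at an unadjusted p under 0.05 and a smallest adjusted p of 0.0916. Leaving the pair out as a term also gave 0 calls. The authors' deposited table called 111 of the genes compared here (0.534%) between il7 mutant and control, of which 0 were among the 1294 higher genes and 0 among the 213 lower genes. No p-value was given in the authors' deposited table for 783 of the higher genes (60.5%), against 1178 of all genes compared (5.67%). zp3b was one of them, with deposited log2 fold changes for il7 mutant over control of −0.84 (unshrunken) and −0.08 (shrunken). The reason for the missing p-values was not tested. Genes without a p-value could not be called, so the lack of calls among the higher genes is partly set by this. With 0.534% called over all genes, few calls would fall in either set anyway.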

How the data were processed

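Libraries were stranded and made from marrow total RNA depleted of ribosomal RNA, per the labels' protocols. DESeq2 1.14.1, featureCounts 1.5.2, STAR 2.5.3a, bcl2fastq 2.17.1.14 and the build GRCz10 are named in the submitters' processing notes, without their roles. How the counting treated strand is not given in the sources used here, and overlapping genes and near-identical copies are uncertain. The signal deposited per gene is a normalized count, which is not per length, so levels were not compared between genes. A second table by the authors holds log2 fold changes, a p-value and its adjusted value, and a deposited Wald score that was not used.

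Of 32267 features, 6019 were 0 in all libraries and 26433 (81.9%) had a symbol in a table of gene names, written as there. Each value was a whole multiple, within 1e-06, of a step per library, and totals of these multiples gave the depth of 35854285 and 46120889 reads in il7 mutant 2 and control 1, and between 34496353 and 39478321 in the others. With steps near 1 in several libraries the multiples were not taken as raw counts, and limma on a log scale replaced the planned count test. Reads given per gene, as in the absence limits, are these multiples. Absence limits cover counting error only. Each SE comes from the residual spread between libraries in the limma fit, moderated toward the trend over all genes.

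Groups came from the sample titles. limma 3.58.1 (R 4.3.3), using a trend in the variance and Benjamini-Hochberg adjustment at 0.05, was fitted to log2(normalized count + 1) of the 20782 genes with a mean of at least 10. Genotype and the pair were terms, and their interaction was fitted for the difference between sides. Changes of low genes are understated on this scale. The 20 gene lists held 328 symbols: 256 matched exactly, 40 by the symbol without its paralog letter or number, and 32 not at all. Members, the pair and lists were chosen with earlier results of these data known. Named genes were the 3 markers, the 15 highest and 12 lowest differences among genes with more than a clone name, the 3 largest of each list, the 8 smallest interaction p-values and up to 12 genes absent from each side. A few genes picked this way are not reported here. Further genes were named as examples of their lists after their values were seen. Alternatives covered pseudocount, filter, scaling, the terms of the fit, a replicate block, each replicate left out and the thresholds. The steps were tested on simulated data with the same noise level for all genes, unlike the measured data. Most genes given a 2-fold or 4-fold interaction there were not recovered, while those given a 16-fold interaction were. The simulation does not tell how well the tests work on the measured data.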

Additional observations from a re-analysis of the deposited data

Results flagged for a closer look

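Within the 4 libraries outside the oocyte-rich pair, a single library stood apart by its distance to its nearest neighbour for 7 of 123 results examined. Chance gives such a gap in about 1 in 20 groups. Control 2 was the high one for 3 genes that are high in the pair, with normalized counts of 36.4 for zp2.5, 38.4 for qdprb.3 and 63.7 for zp2.2. It was the low one for 2 genes that are low in the pair, with 1.01 for pimr132, a pim-related kinase gene, and 25.3 for GRM8. The stem cell transcription factor gene gata2b was low in control 3 at 37.7. The summed maternal determinants were highest in il7 mutant 3 at 10199.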

How the results depend on the processing

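The count of higher genes stayed within 1.5 times of 1294 under other pseudocounts, filters and scalings. A fit without genotype gave the same 1294. That outcome was fixed by the design, since each genotype has the same share of its libraries in the pair. No gene or list result reversed by the criterion used, which is not a change of sign alone. Under some settings the medians of the meiosis, follicle cell, neutrophil, macrophage, liver and pancreas lists changed sign. The liver median of 0.54 became −0.20 without il7 mutant 1 and −0.34 without il7 mutant 2. Of 1728 gene and list values under alternatives, 1577 stayed within the replicate spread and 151 moved beyond it. Lower genes numbered 377 with quantile normalization, of which 208 were among the main 213. Requiring a log2 difference of 1 gave 2786 higher and 1237 lower genes, and of 3 gave 764 and 65. With 0 reads as the limit of absence, 0 genes were absent from the pair and 29 from the other 4 libraries; with 50 normalized counts required on the other side, 2 and 46 were. Leaving out each replicate in turn gave 1163 to 1964 higher genes, 164 to 547 lower genes and 0 to 6 interaction calls. The extremes were 1964 higher and 547 lower without il7 mutant 2, 545 lower and 6 interaction calls without control 2, and 405 lower without control 1. Same-numbered libraries had correlated deviations of −0.51, −0.40 and 0.51 for replicates 1, 2 and 3. Replicates 1 and 2 each hold 1 library of the pair and 1 other library, which by itself pushes their values below 0. Both libraries of replicate 3 lie outside the pair, which by itself pushes its value above 0. Whether the numbers pair the samples therefore cannot be told from these values. The replicate block gave 1294 higher genes, of which 1216 were shared with the main set, 120 lower genes and 0 genotype calls. The interaction could not be fitted with the block, nor without il7 mutant 2 or control 1. An edgeR test and its TMM scaling were planned and not run.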
